A study of Rattus norvegicus with 183 samples.

Results

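The proteasome subunit genes are the 48 genes of the expression table whose whole symbol is Psm, a letter from a to g and a number, among 38354 genes in all. They were followed in polyA RNA of outbred heterogeneous stock rats. The tissue was the posterior ventral tegmental area, where midbrain dopamine neurons lie. The series has no treatment groups, and its labels give no sex, age or batch, so the data show how animals, or the tissue pieces taken from them, differ. Of 183 samples, 31 are labelled as removed and the rest have values. Libraries were used where Th, the dopamine synthesis gene, reached at least 10 CPM, that is 10 counts per 1000000 of the library total. Of these, 53 have a decimal identifier in their title, 87 a hexadecimal one and 1 another form, and 17 were relabelled or recovered by the submitters. Their lowest Th level was 577 CPM, whereas the other 11 libraries reached at most 3.47 CPM and so lack the defining marker of the labelled region. The labels do not say what the identifier form stands for, and many of the results, though not all, are given within both forms. The library totals, in units of 1000000 estimated counts, were 15.2 to 57.2, with a median of 27.5 for decimal and 22.9 for hexadecimal identifiers. In bulk tissue fewer cells of a type and less RNA per cell cannot be told apart.

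The proteasome degrades proteins marked with ubiquitin. Its 20S core is a stack of rings of alpha subunits, which form the gate, and beta subunits, which line the chamber and carry the catalytic sites, and the 19S cap, made of an ATPase base and non-ATPase subunits, recognises, unfolds and feeds in the substrate. The catalytic subunits encoded by Psmb5, Psmb6 and Psmb7 (beta-5, beta-1 and beta-2) can be replaced by the interferon-inducible Psmb8, Psmb9 and Psmb10 in the same order, which gives the immunoproteasome, known for producing peptides that MHC class I presents. In brain most cells use the constitutive form, and microglia and other immune cells are known sources of the inducible form.

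Psmb8 (chr20:4654068-4657049) and Psmb9 (chr20:4668952-4674421) lie in the MHC region on both sides of Tap1, which encodes a peptide transporter of MHC class I loading, and Psmb10 lies at chr19:50740808-50743292. These positions are from the RefSeq gene table (GRCr8), in which an end of each of the 48 genes is the position the deposited table gives. The promoters of the inducible genes, of Tap1, of the activator gene Psme2 and of Psmb5 as a constitutive counterpart are shown because expression of the inducible genes is compared below with that of interferon genes. Each runs from 250 bases before to 20 bases after the RefSeq start site. Capitals mark matches to the core of the interferon-stimulated response element (GAAA, any 2 bases, GAAA), TTCNNNGAA (gamma-activated site) or TGACNNNGC (core of the antioxidant response element), searched on both strands.
Psmb8, GRCr8 chr20:4657012-4657281, minus strand: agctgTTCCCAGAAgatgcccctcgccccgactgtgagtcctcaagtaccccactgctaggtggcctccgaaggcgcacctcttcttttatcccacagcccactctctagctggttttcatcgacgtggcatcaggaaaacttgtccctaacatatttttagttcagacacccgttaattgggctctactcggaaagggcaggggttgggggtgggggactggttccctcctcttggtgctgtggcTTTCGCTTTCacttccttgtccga
Psmb9, GRCr8 chr20:4668750-4669019, plus strand: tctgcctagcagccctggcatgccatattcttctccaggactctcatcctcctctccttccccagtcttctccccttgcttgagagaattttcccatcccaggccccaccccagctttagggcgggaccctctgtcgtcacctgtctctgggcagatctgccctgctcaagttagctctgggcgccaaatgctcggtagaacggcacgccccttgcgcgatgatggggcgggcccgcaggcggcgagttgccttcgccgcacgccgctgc
Psmb10, GRCr8 chr19:50743273-50743542, minus strand: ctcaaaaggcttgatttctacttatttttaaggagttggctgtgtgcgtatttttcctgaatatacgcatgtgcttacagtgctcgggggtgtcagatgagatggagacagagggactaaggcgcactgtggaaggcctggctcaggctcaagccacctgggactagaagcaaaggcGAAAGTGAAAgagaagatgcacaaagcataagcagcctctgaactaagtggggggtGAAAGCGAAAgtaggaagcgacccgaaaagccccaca
Tap1, GRCr8 chr20:4668524-4668793, minus strand: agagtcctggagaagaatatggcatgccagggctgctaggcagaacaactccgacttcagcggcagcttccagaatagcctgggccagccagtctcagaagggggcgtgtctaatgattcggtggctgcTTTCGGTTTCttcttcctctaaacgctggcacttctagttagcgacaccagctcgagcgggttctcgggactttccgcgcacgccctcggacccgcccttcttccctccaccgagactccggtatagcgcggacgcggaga
Psme2, GRCr8 chr15:33052732-33053001, minus strand: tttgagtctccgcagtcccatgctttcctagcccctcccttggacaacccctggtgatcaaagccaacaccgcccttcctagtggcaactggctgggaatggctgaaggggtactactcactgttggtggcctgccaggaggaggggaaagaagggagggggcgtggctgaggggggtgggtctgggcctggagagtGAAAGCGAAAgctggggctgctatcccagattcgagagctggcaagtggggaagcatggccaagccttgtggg
Psmb5, GRCr8 chr15:32047360-32047629, minus strand: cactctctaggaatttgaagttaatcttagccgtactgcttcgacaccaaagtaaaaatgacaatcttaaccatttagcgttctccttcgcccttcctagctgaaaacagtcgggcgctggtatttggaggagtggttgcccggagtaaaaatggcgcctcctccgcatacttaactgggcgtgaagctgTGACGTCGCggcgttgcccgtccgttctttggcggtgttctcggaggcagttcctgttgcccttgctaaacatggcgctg
The RefSeq start sites of Psmb8, Psmb9 and Psme2 (4657031, 4669000 and 33052751) are not the positions of these genes in the deposited table (4657049, 4668952 and 33053055). Psmb9 and Tap1 are transcribed away from each other, with 457 bases between their start sites.

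The interferon-stimulated response element core occurs in 3.50% of 27457 promoters of this length. Psmb10 holds it at 2 places (first base at -73 and -17), Psme2 at -53, Psmb8 at -4 and Tap1 at -121, on its side of the interval shared with Psmb9. The windows of Psmb9 and Psme1 hold no match. Of the 43 proteasome genes with a promoter sequence 7 hold it, the others being Psma4, Psmb3, Psmd7 and Psmg4. TTCNNNGAA occurs in 8.03% of all promoters and in 4 proteasome genes, Psmb8 at -245, Psmd7, Psmc6 and, at 3 places, Psmd3. TGACNNNGC, a motif of the stress factors Nrf1 and Nrf2, occurs in 11.1% of all promoters and in 5 of 27 constitutive 20S and 19S subunit genes (Psmb5, shown above, Psmb2, Psmb6, Psma3 and Psmd1). CCAAT occurs in 35.8% of all promoters and in 14 of these 27 genes. These matches are descriptions of letters, not of binding.

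Most constitutive proteasome genes varied little between libraries, and the inducible Psmb8 and Psmb9 varied most. Of the 48 genes, 46 had a mean log2(CPM + 1) of at least 1. The other two were Psmb11, the thymus-specific catalytic subunit, at 0 to 0.609 CPM, and Psma8, a testis-specific alpha subunit, at 0.0457 to 1.90 CPM. The standard deviation (SD) over libraries was below 0.20 log2 units in 31 of the 46 genes, and 38 lay below the median of all genes that passed, 0.26. That median is not matched for level. Among the 200 genes nearest in mean level, the share that varied less ran from 1.5% for Psmd2 to 87% for Psmb3 over the constitutive core genes. Psmd2, a large scaffold subunit of the 19S base, varied least. It ranged from 165.7 to 242.5 CPM with a median of 209.6 (SD 0.096), and 0.28% of genes varied less. Psmd1, its partner scaffold, ranged from 141.1 to 226.7 CPM (SD 0.11). Among constitutive core genes the widest was Psmb3, a structural beta subunit, from 55.3 to 148.4 CPM with a median of 71.8 (SD 0.33). The highest library was 1.46 times the lowest for Psmd2 and 2.68 times for Psmb3, and the other 29 constitutive genes lay between. Reads of Psmb3 may be shared with copies, since the RefSeq table lists 10 pseudogenes or similarly named copies of Psmb3. Such copies exist for 19 of the 48 genes, and 13 genes overlap another gene, among them Psme1 with Emc9 and Psmb1 with Tbp, so that their counts are less certain. The assembly chaperones of the 20S core ranged from 26.1 to 53.7 CPM (median 37.6) for Psmg1, 10.6 to 27.9 CPM (median 13.5) for Psmg2, 14.4 to 31.6 CPM (median 19.3) for Psmg3 and 6.33 to 20.7 CPM (median 9.85) for Psmg4. Those of the 19S base ranged from 27.7 to 56.9 CPM (median 39.6) for Psmd5, 25.1 to 44.9 CPM (median 33.2) for Psmd9 and 25.3 to 52.1 CPM (median 32.8) for Psmd10.

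**Figure D1:**
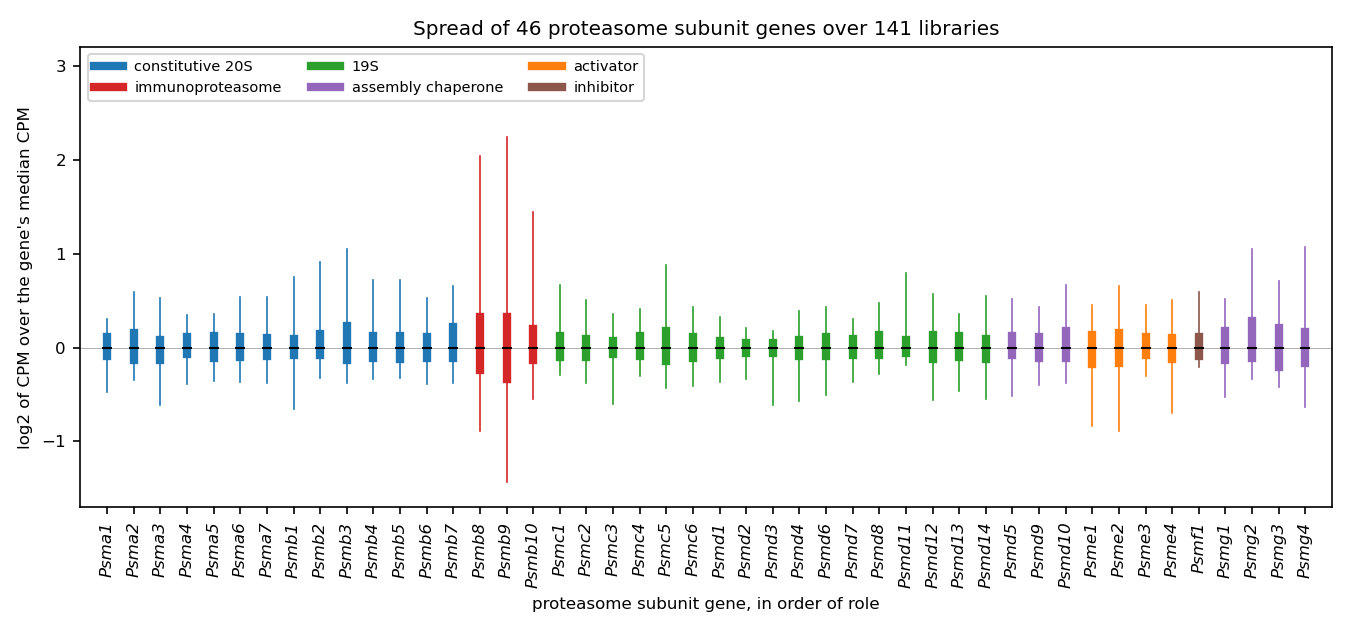
Level of each of 46 proteasome subunit genes in the libraries with Th, as log2 of CPM over the gene's own median (vertical axis), with genes in order of role (horizontal axis). Thin lines run from the lowest to the highest library, thick bars cover the middle of the libraries from the lower to the upper quartile, and dashes mark the median. Psmb8 and Psmb9 span the widest range.

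Psmb8 and Psmb9 differed widely between libraries, and Psmb10 less so. Psmb8 ranged from 2.42 to 18.4 CPM with a median of 4.50 (SD 0.40 log2 units). Psmb9 ranged from 1.59 to 20.3 CPM with a median of 4.29 (SD 0.45). Psmb10 ranged from 8.62 to 34.2 CPM with a median of 12.6 (SD 0.26). Each gene was highest in the same hexadecimal library, in which Psme1 was highest too. The next highest library reached 12.0, 11.5 and 22.2 CPM for Psmb8, Psmb9 and Psmb10. Counting error alone, from the estimated counts, gives an SD of 0.11 for Psmb8, 0.12 for Psmb9 and 0.076 for Psmb10. Low genes tend to vary more on this scale. Of the 200 genes nearest in mean level, 70.5% varied less than Psmb8, 73.5% less than Psmb9 and 46% less than Psmb10. The constitutive counterparts kept to narrower ranges, Psmb5 from 85.4 to 175.3 CPM (median 106.8), Psmb6 from 78.7 to 148.4 CPM (median 103.2) and Psmb7 from 118.8 to 243 CPM (median 154.2). Of the 200 genes nearest in mean level to each, 52.5% varied less than Psmb5, 35.5% less than Psmb6 and 55% less than Psmb7. For Psmb5 and Psmb7 this share was above that of Psmb10. Levels are not per length, so they are not compared between genes.

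**Figure D2:**
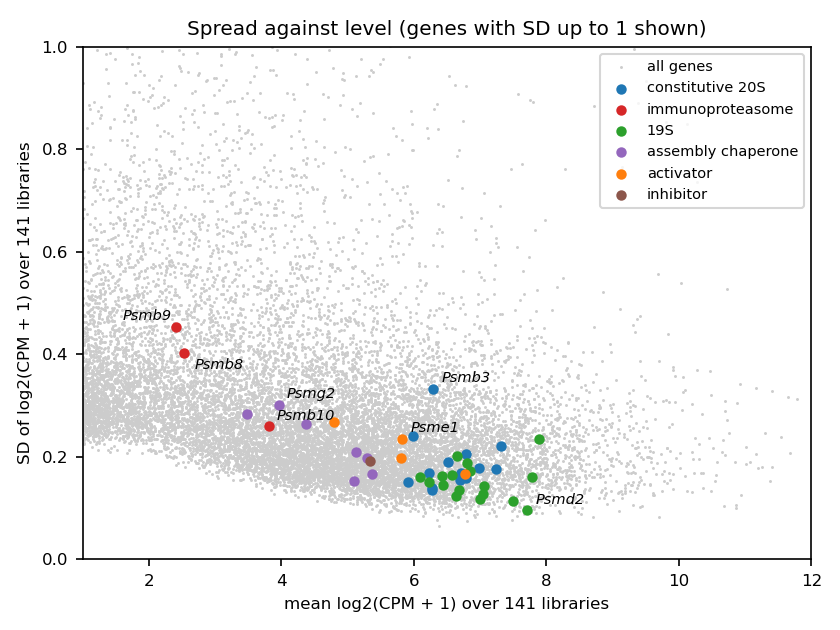
SD against mean of log2(CPM + 1) over the libraries with Th, for all genes that passed (grey, those with an SD up to 1) and for the proteasome subunit genes by role (colours). Of the 46 subunit genes 38 have an SD below the median of all genes that passed (0.26). Psmb8, Psmb9 and Psmb3 (SD 0.40, 0.45 and 0.33) lie above the other subunit genes.

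Most constitutive subunit genes went together from library to library. Over the 31 constitutive 20S and 19S genes, the mean Pearson r of 465 pairs was 0.407 (0.488 within decimal and 0.410 within hexadecimal libraries), beside 0.0502 over all pairs of the 15546 genes that passed. The 465 pairs ran from -0.409 to 0.919, with 425 above 0, and 24 of the 31 genes had r above 0.5 with the mean of the others. These values are descriptions over libraries that share total scaling, and the comparison with all genes is not matched for level. The 3 constitutive catalytic genes were closest, with a mean r of 0.846 (Psmb5 and Psmb6, 0.872). The mean was 0.588 within the alpha ring, 0.636 within the constitutive beta ring, 0.517 among the 19S ATPases and 0.322 among the 19S non-ATPase subunits. The 4 assembly chaperones of the 20S core, Psmg1 to Psmg4, which pair and order the alpha ring, had a mean r of 0.646. Psmd13, a lid subunit, had the highest r with the mean of the other constitutive genes (0.852), followed by Psma2 (0.837) and Psmd6 (0.829). Psmd1 (0.149), Psmd2 (0.238) and Psmd11 (0.259) followed the others least.

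Several of the closest pairs joined genes of different roles. Psmb2 and Psmb3 had the highest r, 0.919, and Psmb3 also went with Psmg2 (0.894), Psmd11 (0.867) and Psmf1 (0.856), the gene of a proteasome inhibitor. The values with Psmd11 and Psmf1 belong to the hexadecimal libraries (0.914 and 0.907) and were far lower in the decimal ones (0.201 and 0.274). For Psmb3 with Psmg2 r was 0.921 in hexadecimal and 0.665 in decimal libraries. Psmc1, an ATPase, went with Psmd12, a lid subunit (0.864), and with Psmc5 (0.855) in both forms. Psme4, the gene of the activator PA200, went against the constitutive catalytic genes, with r = -0.63 for Psmb5 (-0.512 decimal, -0.672 hexadecimal), -0.52 for Psmb6 and -0.448 for Psmb7. Its r was 0.261 with Psmb8, 0.20 with Psmb9 and -0.075 with Psmb10. With the other activator genes Psme1 and Psme2, r of Psme4 was -0.196 and -0.446.

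**Figure D3:**
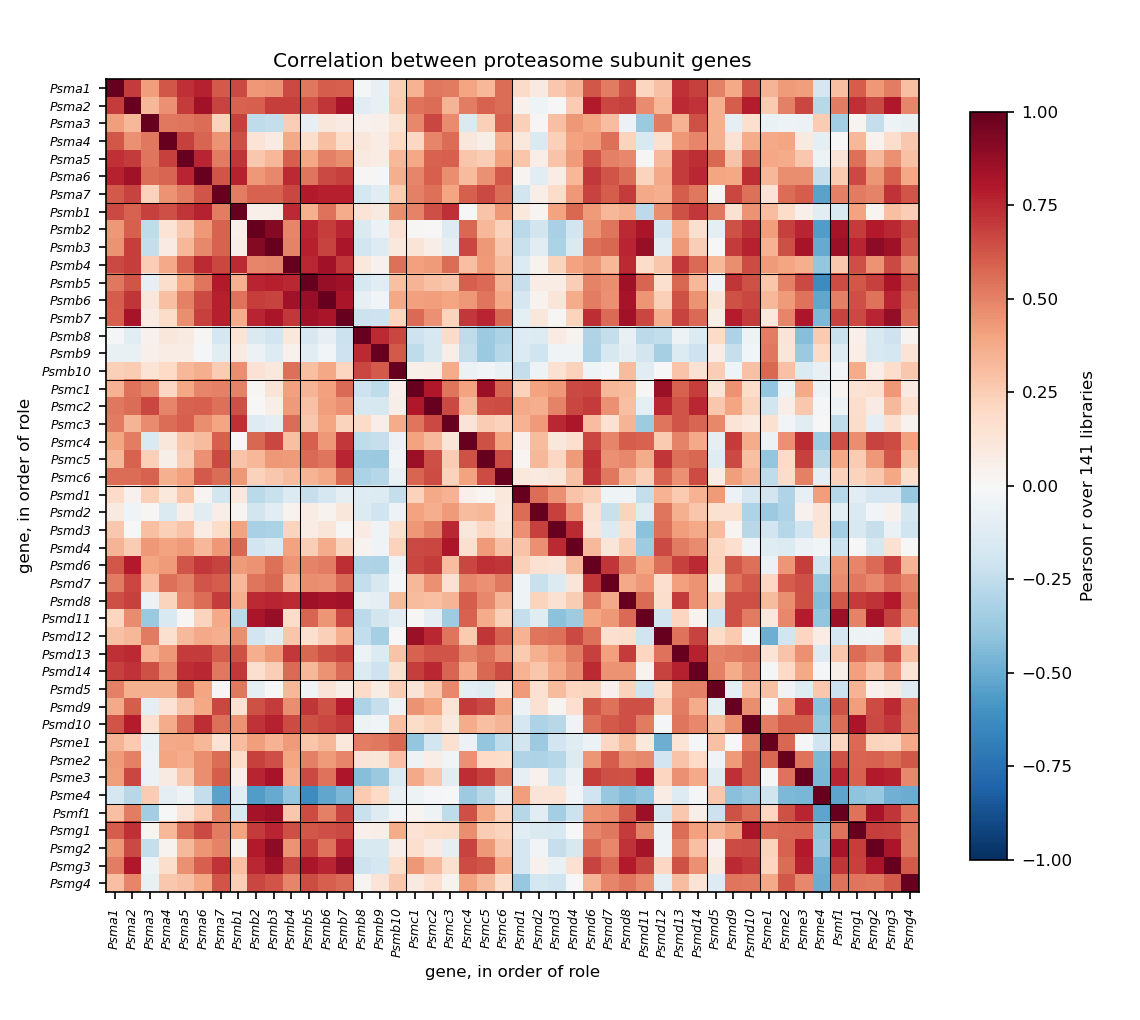
Pearson r between 46 proteasome subunit genes over the libraries with Th (colour scale from -1 to 1), with genes in order of role on both axes and lines between roles. Psmb8, Psmb9 and Psmb10 have a mean r of 0.677 with each other, and Psme4 has mostly negative values.

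Psmb8, Psmb9 and Psmb10 went together, with a mean r with each other of 0.677 (0.686 within either identifier form). Psme1 went with each of them too (0.515, 0.526 and 0.573 in that order), and Psmb10 also went with the constitutive Psmb4 (0.554) and Psmb1 (0.463). With the 31 constitutive genes the mean r was -0.10 for Psmb8, -0.11 for Psmb9 and 0.159 for Psmb10. Pairs were tested by a two-sided permutation test with 100000 resamples and Benjamini-Hochberg adjustment over 63 relations; the smallest p it can give is 1e-05, which corresponds to an adjusted p of 2.1e-05. Psmb8 and Psmb9 had r = 0.747 and rho = 0.669, and r = 0.696 once the 2 libraries most distant from Psmb8's median were left out. Psmb8 and Psmb10 had r = 0.670 and rho = 0.591 (0.594 without 2 libraries), and Psmb9 and Psmb10 r = 0.613 and rho = 0.549 (0.536). All 3 pairs reached the smallest adjusted p. Against its own constitutive counterpart, Psmb8 had r = -0.16 with Psmb5 (rho = -0.171, permutation adjusted p = 0.0743) and Psmb9 had r = -0.024 with Psmb6 (rho = 0.0204, permutation adjusted p = 0.846). Neither passed the test. Psmb10 had a weak r of 0.215 with Psmb7 (rho = 0.194, permutation adjusted p = 0.0145), which was 0.393 in decimal and 0.123 in hexadecimal libraries.

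The inducible genes rose with interferon-response genes, and few other proteasome genes did. A score for interferon response was the mean z-score of 27 genes, and the slope of each gene on it was fitted with limma across 15547 genes in 140 libraries, with identifier form as a covariate. Per SD of the score, Psmb9 rose by 0.35 log2 units (SE 0.023, adjusted p = 3.3e-28), Psmb8 by 0.31 (SE 0.022, adjusted p = 4.7e-27) and Psmb10 by 0.17 (SE 0.017, adjusted p = 7.7e-15). Ranked by moderated statistic they stood at 41, 45 and 85 among the 15547 genes. In all, 5 of the 46 genes rose and 24 fell, while 43.8% of all genes rose and 16% fell. The other 2 that rose were the activator genes Psme1 (0.090, SE 0.018, adjusted p = 1.5e-05) and Psme4 (0.072, SE 0.015, adjusted p = 4.4e-05). Those that fell included each of the 3 constitutive catalytic genes, Psmb7 by 0.075, Psmb5 by 0.057 and Psmb6 by 0.033, as well as 5 of 6 ATPases, 6 of 11 non-ATPase subunits and 2 of 7 alpha subunits. The median slope was -0.032 over the 46 genes and 0.030 over all genes. Under median-of-ratios scaling, in which each library is divided by a factor taken from the median gene in place of its total, 5 rose and 32 fell, beside 21.6% and 23.1% of all genes. The median slope was then -0.053 over the 46 genes and -0.00068 over all genes.

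The number of falling genes differed between fits, while Psmb8, Psmb9 and Psmb10 passed in each. The interferon score ran against a score of nuclear oxidative phosphorylation genes (r = -0.335, -0.036 within decimal and -0.424 within hexadecimal libraries). With that score added to the fit, 6 genes rose and 5 fell, beside 22.4% and 5.16% of all genes. Psmb9 (0.37), Psmb8 (0.33), Psmb10 (0.21) and Psme1 (0.11) kept their direction and call, Psme2 rose by 0.051 and Psme4 by 0.040, and Psmb5, Psmb6 and Psmb7 lay between -0.012 and 0.0098. Within decimal libraries 4 genes rose and 1 fell, beside 21.6% and 1.81% of all genes. Within hexadecimal libraries 5 rose and 26 fell, beside 37.9% and 16.6%. The 4 that rose in decimal libraries were Psmb8 (0.26), Psmb9 (0.25), Psmb10 (0.13) and Psme1 (0.12), and the 1 that fell was Psmd12. Slopes within a form are per SD of the score in that form. On a common score, the difference in slope between the identifier forms passed at the adjusted threshold for none of the 46 genes with limma. Of all genes, 0.00643% passed with a more positive slope in hexadecimal than in decimal libraries and 0.373% with a more negative one. At an unadjusted p under 0.05 in limma there were 13 of the 46. The share of all genes at that unadjusted level was not computed, so the 13 have no background.

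The library with the highest Psmb8, Psmb9 and Psmb10 had an interferon score 7.03 SD above the mean, beside 2.64 SD for the next library. Its microglia score was 0.34 SD above the mean. Without this library and the other one farthest from the median, Psmb8 rose by 0.27, Psmb9 by 0.29 and Psmb10 by 0.12 per SD of the score recomputed on the rest, each still past the threshold.

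**Figure D4:**
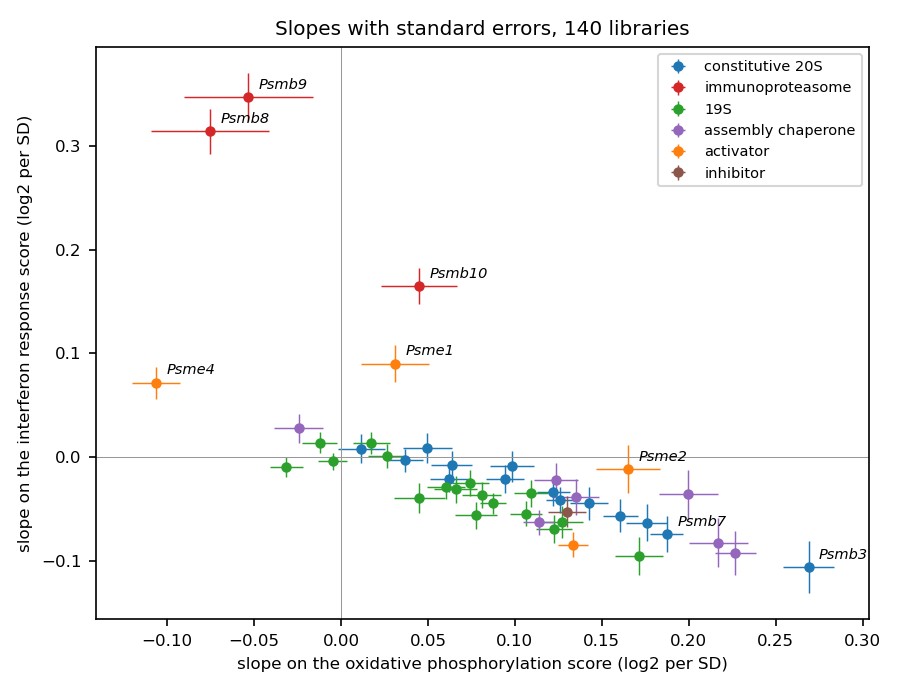
Slope on the interferon response score (vertical axis) against slope on the oxidative phosphorylation score (horizontal axis), in log2 units per SD of score with standard errors, for 46 proteasome subunit genes in 140 libraries. Psmb8 (0.31), Psmb9 (0.35) and Psmb10 (0.17) stand above the rest on the vertical axis, and Psmb3 (0.27) lies farthest right.

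Single genes of interferon signalling and antigen presentation gave the same separation. They were taken from the lists behind the scores, so they are not independent of the slopes above. Psmb8, Psmb9 and Psmb10 each passed with 7 of 7 such genes in the positive direction. These were Tap1 and Tap2 (peptide transport), B2m (light chain of MHC class I), Nlrc5 (activator of MHC class I genes), Irf1 and Irf7 (interferon signalling) and Cd74 (invariant chain of MHC class II). The range of r was 0.590 to 0.687 for Psmb8, 0.548 to 0.644 for Psmb9 and 0.358 to 0.596 for Psmb10. The closest gene depended on the measure. By r over all libraries Psmb8 was closest to Tap2 (r = 0.687, rho = 0.579, 0.636 without 2 libraries). By rho and without 2 libraries it was closest to Cd74 (rho = 0.607, r = 0.649 without 2 libraries). Psmb9 was closest by r to Irf7 (r = 0.644, rho = 0.50, 0.541 without 2 libraries). By rho and without 2 libraries it was closest to Cd74 (rho = 0.633, r = 0.663 without 2 libraries). With Tap1, its neighbour across the shared interval, Psmb9 had r = 0.639 and rho = 0.538 (0.377 decimal, 0.732 hexadecimal). Psmb10 was closest by r to Irf7 (r = 0.596, rho = 0.455, 0.467 without 2 libraries). By rho and without 2 libraries it was closest to B2m (rho = 0.565, r = 0.579 without 2 libraries). Of the counterparts, Psmb7 passed with 5 of these 7 genes and Psmb5 with 4, all in the negative direction, and Psmb6 with 2 negative and 1 positive. Psmb7 had its lowest r with Nlrc5 (r = -0.506, rho = -0.514, -0.488 without 2 libraries), with -0.233 within decimal and -0.567 within hexadecimal libraries. Of the 63 relations 47 passed, 35 positive and 12 negative. Within decimal libraries 39 passed, of which 2 were negative, and within hexadecimal libraries 49 passed, of which 16 were negative. The share of all genes that pass with these 7 genes was not computed, so the counts have no background. On the interferon score 43.8% of all genes rose in the limma fit.

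The ratio of inducible to constitutive subunit followed the interferon score in both identifier forms. It is the difference of log2(CPM + 1) and was set against 4 scores, 12 relations in all, by the same permutation test, and each of the 12 gave the smallest adjusted p of 1e-05. The ratio of Psmb8 to Psmb5 ranged from -5.18 to -2.43 with a median of -4.35 and had r = 0.767 and rho = 0.735 with the interferon score (0.734 decimal, 0.788 hexadecimal, 0.744 without 2 libraries). Psmb9 to Psmb6 ranged from -5.53 to -2.28 with a median of -4.34 and had r = 0.796 and rho = 0.737 (0.725 decimal, 0.813 hexadecimal, 0.761 without 2 libraries). Psmb10 to Psmb7 ranged from -4.19 to -2.03 with a median of -3.51 and had r = 0.785 and rho = 0.746 (0.634 decimal, 0.834 hexadecimal, 0.723 without 2 libraries). With the score of MHC class I and peptide loading genes r was 0.671, 0.720 and 0.690 in the same order, with MHC class II 0.589, 0.616 and 0.563, and with microglia 0.467, 0.453 and 0.464.

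**Figure D5:**
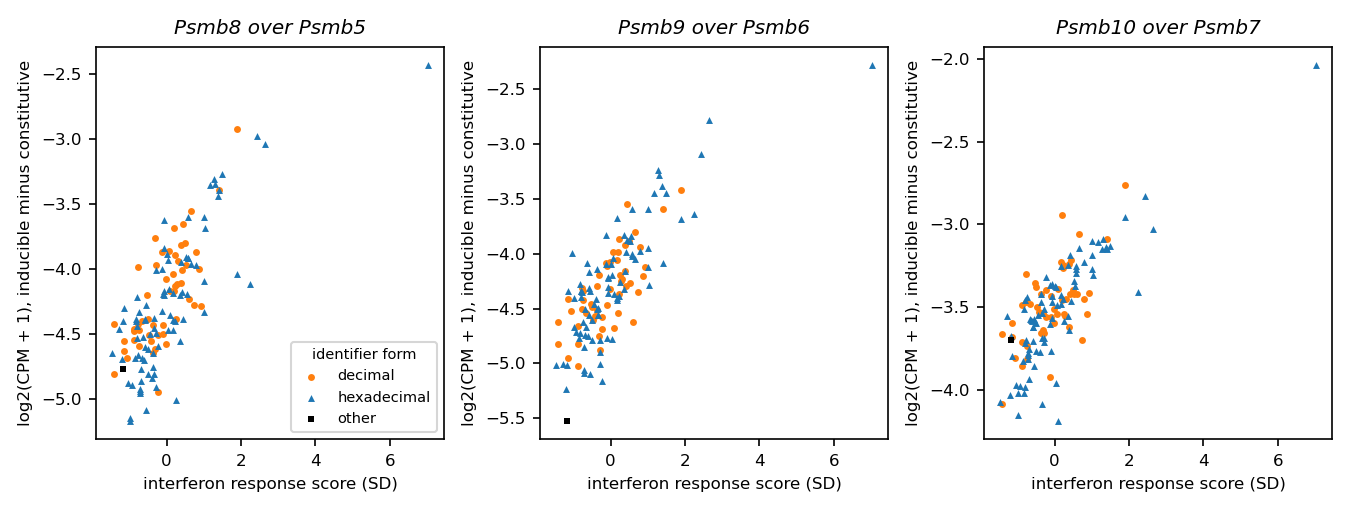
Difference of log2(CPM + 1) between each inducible catalytic subunit and its constitutive counterpart (vertical axes) against the interferon response score in SD (horizontal axes), 1 point per library, coloured by identifier form. Both forms rise together (r = 0.767, 0.796 and 0.785), and the library with a score of 7.03 SD lies alone at the upper right.

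On the MHC class I and peptide loading score (12 genes), 6 proteasome genes rose and 9 fell, beside 31.3% and 10.1% of all genes. Psmb9 (0.35, SE 0.023, adjusted p = 3.8e-27) and Psmb8 (0.32, SE 0.022, adjusted p = 5.4e-26) ranked 2 and 6 among all 15547 genes in the limma fit, and Psmb10 (0.18) ranked 48. The other 3 were Psme1 (0.15), Psme2 (0.075) and Psma4 (0.027). This score had r = 0.829 with the interferon score, so these slopes and ranks are not independent of the interferon slopes. The library with an interferon score of 7.03 SD reached 6.34 SD here, beside 2.65 SD for the next. With 2 extreme libraries left out, this one among them, 7 proteasome genes rose and 11 fell, beside 5988 and 1800 of 15549 genes. Psmb8, Psmb9 and Psmb10 still passed, and their ranks in that fit are not given. Under median-of-ratios scaling 5 rose and 2 fell, beside 10.3% and 6.98% of all genes. On the MHC class II score (7 genes) Psmb8 (0.29), Psmb9 (0.29), Psmb10 (0.14) and Psme1 (0.11) rose and 12 fell, beside 28.6% and 9.58% of all genes. Under median-of-ratios scaling 4 rose and 18 fell, beside 16.7% and 18.3%. On the score of 16 microglia genes 14 rose and 4 fell, beside 32.2% and 11.1%, and under median-of-ratios scaling 21 rose and 5 fell, beside 23.9% and 24.6%. Psmb8 (0.24, SE 0.028, adjusted p = 4.3e-13), Psmb9 (0.24) and Psmb10 (0.15) were again the steepest, followed by Psme1 (0.14). Core genes among those that rose were Psma4, Psma5, Psma6, Psmb1 and Psmb4, at 0.040 to 0.054, and the 4 that fell belong to the 19S cap, Psmd12 (-0.053), Psmc5 (-0.052), Psmd2 (-0.035) and Psmd1 (-0.033). With microglia and endothelium scores in the interferon fit Psmb8 (0.24), Psmb9 (0.29) and Psmb10 (0.13) still passed.

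Values of other cell types moved with the interferon score too. The summed microglia markers ranged from 535 to 1121 CPM and their score had r = 0.433 with the interferon score (0.684 decimal, 0.347 hexadecimal). The astrocyte score had r = 0.523 and the endothelium score 0.501. Of 10 T and NK cell markers only Lck passed the level filter, and the sum of those that passed was 0.972 to 5.00 CPM. The part of cell type shares in the slopes of Psmb8, Psmb9 and Psmb10 was not tested beyond the fit with microglia and endothelium scores.

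Of the 10 genes most like each inducible subunit, the interferon list held 3 for Psmb8, 4 for Psmb9 and 3 for Psmb10. These genes, outside the proteasome list and ranked by r over the libraries with Th, began for Psmb8 with Bst2 (0.805), an antiviral membrane tether, Trim5 (0.776) and Gbp2 (0.769), an interferon-induced GTPase, followed by Igtp, Sp110, Irgm2, C1r, Ifi44, Sp140 and Cmtm6. For Psmb9 they began with Ifi27l2b (0.773), Gbp2 (0.771) and Bst2 (0.770), followed by Ifi44, Sp110, RT1-S3, C1r, LOC133667826, Xaf1 and Ifitm3. For Psmb10 the first was Rplp0 (0.709), a ribosomal protein gene, before Ifi35 (0.682) and Ifi44 (0.654), and Rpsa and Rps3, also ribosomal, stood among the 10. In decimal libraries r of Psmb10 with Rplp0 was 0.873 and with Rpsa 0.839, and in hexadecimal ones 0.617 and 0.538. The rest for Psmb10 were Ctsz, Ifi27l2b, Irf9, RT1-S3 and Dhx58. Genes of the fixed lists were not kept out of this ranking.

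The activator genes differed from one another. Psme1 and Psme2 encode the paired subunits of the interferon-inducible 11S cap PA28 and lie at chr15:33038962-33041849 and chr15:33048452-33053055. Psme1 ranged from 31.8 to 77.6 CPM with a median of 56.7, and Psme2 from 14.6 to 42.3 CPM with a median of 26.9. Psme3 ranged from 85.7 to 144.7 CPM (median 105.9) and Psme4 from 34.5 to 79.3 CPM (median 55.9). Psme1 and Psme2 went together (r = 0.572, rho = 0.567, 0.557 without 2 libraries, permutation adjusted p = 2.1e-05). Psme1 passed positively with 7 of the 7 interferon and MHC genes, most closely with B2m (r = 0.652, rho = 0.656). Psme2 passed positively only with B2m (r = 0.490, rho = 0.481) and negatively with Nlrc5 (r = -0.24, rho = -0.248), for which r was 0.170 within decimal libraries. With the other genes the identifier forms differed. Within decimal libraries r of Psme2 was 0.374 with Irf1, 0.318 with Tap1, 0.310 with Tap2, 0.258 with Cd74 and 0.118 with Irf7. Within hexadecimal libraries it was -0.0998, -0.0288, -0.09, -0.119 and -0.028 in the same order. Psme2 and Psme3 rose with the oxidative phosphorylation score, Psme2 by 0.16 (SE 0.018). Psme2 also rose with the MHC class I and peptide loading score, as given above. Psme3, the gene of the nuclear activator PA28 gamma, fell by 0.085 per SD of the interferon score (SE 0.012, limma adjusted p = 3.2e-09). Psme4 rose with that score by 0.072 (SE 0.015, limma adjusted p = 4.4e-05).

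Most proteasome genes rose with nuclear genes of oxidative phosphorylation, the mitochondrial respiratory chain. On that score (25 genes) 35 of the 46 rose and 3 fell, beside 27.3% and 50.8% of all genes. The median slope was 0.091 over the 46 and -0.043 over all genes. Under median-of-ratios scaling 41 rose and 2 fell, beside 37.5% and 40.9% of all genes, and the median slope was 0.13 over the 46 and -0.0080 over all genes. Psmb3 rose most (0.27, SE 0.015, limma adjusted p = 1.6e-37), then Psmg3 (0.23, SE 0.012), Psmg2 (0.22), Psmg4 (0.20) and Psmb7 (0.19, SE 0.0094, limma adjusted p = 1.7e-40). Each of the 7 constitutive beta genes and of the 4 Psmg chaperones rose, 6 of 7 alpha genes, 5 of 6 ATPases and 8 of 11 non-ATPase subunits. The 3 that fell were Psme4 (-0.11, SE 0.014), Psmb8 (-0.075, SE 0.034) and Psmd1 (-0.031, SE 0.0095). The 8 that did not pass were Psmb9 (-0.053), Psmb10 (0.045), Psme1 (0.031), Psma3, Psmc3, Psmd2, Psmd3 and Psmd5. Psma7 (0.13), Psma1 (0.062), Psmd8 (0.11) and Psmd4 (0.027) were among the core and cap genes that rose, as were the 19S chaperone genes Psmd9 (0.11) and Psmd10 (0.13). Psmb8 was 0.024 within decimal libraries and Psmd1 0.018 under median-of-ratios scaling, both in the other direction. Within decimal libraries 36 of the 46 rose and 1 fell, beside 2398 and 3632 of 15548 genes in all. Within hexadecimal libraries 32 rose and 6 fell, beside 4153 and 7824 of 15530 genes. Among the genes most like the mean of the 31 constitutive genes were Atp5pb (r = 0.884, an ATP synthase subunit), Vdac3 (0.875), Mrpl12 (0.875), Atp6v1e1 (0.875), Slc25a4 (0.866), Cops5 (0.859), Dpcd (0.857), Thoc7 (0.857) and Rbx1 (0.852). Of these, Atp5pb, Vdac3, Mrpl12 and Slc25a4 encode mitochondrial proteins, and Cops5 and Rbx1 belong to the machinery that controls ubiquitin ligases.

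Some libraries held the highest level of several genes. Of the 46 genes, 7 were highest in replicate 4 (Psmb1, Psmb4, Psmb7, Psmc1, Psmc5, Psmc6 and Psmd12), which also had the highest oxidative phosphorylation score (3.35 SD). Another 7 were highest in replicate 47 (Psma2, Psma3, Psma6, Psmc2, Psmd6, Psmd13 and Psmd14), which ranked 30 by that score. Both have decimal identifiers. The library with the highest Psmb8, Psmb9, Psmb10 and Psme1 had an oxidative phosphorylation score of -1.16 SD.

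Partners of the proteasome were listed separately, and 24 of 25 had values. On the oxidative phosphorylation score 7 rose and 9 fell, beside 27.3% and 50.8% of all genes. Under median-of-ratios scaling the balance turned, with 16 that rose and 6 that fell, beside 37.5% and 40.9% of all genes. Pomp, the maturation chaperone of the 20S core, rose by 0.26 (SE 0.023, limma adjusted p = 2.0e-20), Adrm1, a ubiquitin receptor, by 0.18 and Uchl5, a deubiquitinase bound to it, by 0.17. Those that fell included Ecpas, a proteasome adaptor (-0.19), Nfe2l1, the transcription factor gene that drives proteasome genes when the proteasome is impaired (-0.11), and Ddi2, the protease that activates that factor (-0.091). Nfe2l1 had r = -0.31 and Ddi2 r = -0.3 with the constitutive score. On the interferon score 4 rose and 8 fell, beside 43.8% and 16% of all genes, with Nfe2l2, a stress factor gene, at 0.11 and Pomp at -0.14. Under median-of-ratios scaling 1 rose, Nfe2l2, and 14 fell, beside 21.6% and 23.1%. On the MHC class I score 2 partners rose and 6 fell, beside 31.3% and 10.1% of all genes, and under median-of-ratios scaling 1 and 2. On MHC class II the counts were 1 and 5, beside 28.6% and 9.58%, and 1 and 9 under that scaling. On microglia they were 5 and 10, beside 32.2% and 11.1%, and 4 and 10 under that scaling. On dopamine neurons they were 5 and 2, beside 15.9% and 13.6%, and 5 and 0 under that scaling. Nfe2l1 ranged from 248 to 524 CPM with a median of 435.

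Many genes of the table differed between hexadecimal and decimal libraries, and 19 of the 46 proteasome genes were among them. In the limma fit 10 were higher and 9 lower in hexadecimal libraries, beside 14.3% and 23.8% of all genes. Both directions together, the share of proteasome genes called was near that of all genes. Psmb3 (0.21, SE 0.055, adjusted p = 0.0016), Psmb2 (0.19), Psmg2 (0.15) and Psmd11 (0.14) were most raised, and Psmb5, Psmb6 and Psmb7 were higher by 0.10, 0.094 and 0.090. Psmd12 (-0.14, SE 0.031, adjusted p = 0.00022), Psma3 (-0.11) and Psmc1 (-0.093) were most lowered. Among the partners 3 were higher and 6 lower, with Sem1, a small 19S subunit, at -0.25. Psmb8 (0.031), Psmb9 (0.16) and Psmb10 (0.056) did not pass. Median-of-ratios scaling gave 15 higher and 2 lower, beside 18.4% and 19% of all genes, and among the partners 8 higher and 4 lower. With log2 library size in the fit 2 were higher and 9 lower, beside 5.67% and 12.2% of all genes, and among the partners 3 and 4. Depth differed between the forms (medians above), and its part in the difference was not tested beyond that fit.

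Few proteasome genes passed on the dopamine neuron score (15 genes). Per SD, 1 gene rose and 4 fell, beside 15.9% and 13.6% of all genes. Psme1 rose by 0.066 (SE 0.019, limma adjusted p = 0.0046), and Psmc5 (-0.075), Psmc4 (-0.052), Psmc1 (-0.04) and Psmd6 (-0.04) fell. Under median-of-ratios scaling Psme1 alone passed, while 13.7% of all genes rose and 12.8% fell. In the 11 libraries without Th, Psmb8 ranged from 1.94 to 3.26 CPM (median 2.96), Psmb9 from 1.56 to 2.91 CPM (median 2.39), Psme1 from 25.2 to 32.4 CPM (median 27.6) and Psme4 from 31.5 to 42.1 CPM (median 35.8). Psme1 of these libraries overlapped only the lowest of the libraries with Th, and the highest Psmb8 and Psmb9 lay below the medians of those libraries. Psmb10 lay above its median of the libraries with Th in each (13.3 to 19.2 CPM, median 16.9). These libraries lack the tissue's marker, and no test was made.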

How the data were processed

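PolyA RNA was profiled in 183 samples, of which 31 labelled as removed were not used. Per the submitters' processing notes, the authors used kallisto 0.48, which estimates counts per transcript, and no source used here names the genome build. The deposited values are log2 values per gene, and their form, log2(estimated count + 1), was taken from the values: after back-transformation, 55.7% of those above 0 and below 100 were whole to within 0.001. They were back-transformed, divided by the library total and written as log2(CPM + 1), so that the pseudocount of 1 shrinks differences of low genes. Libraries with at least 10 CPM of Th and genes with a mean of at least 1 entered.

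Members, gene lists and tests were chosen with earlier results of these data known. The text names all members, a list of proteasome partners, the genes of the interferon and MHC lists used in the correlations, and the 10 non-members most correlated with each inducible gene and with the constitutive mean. A gene of the planned correlations was left out of that family, and a gene most like the constitutive mean is not reported here. A list score is the mean z-score of the members of a list that passed the filter, scaled to an SD of 1; no list holds a member. Slopes and differences were fitted with limma 3.58.1 (R 4.3.3; empirical Bayes with a mean trend) across all genes in the 140 libraries of the decimal and hexadecimal forms, with Benjamini-Hochberg adjustment over all genes and a threshold of 0.05. Correlations used all libraries with Th and permutation tests. The fit of the interferon slope was tested on simulated data (15547 genes, 50 changed genes per size), where slopes of 0.05, 0.1, 0.2 and 0.4 were recovered in 18, 76, 92 and 100%, with 4 false calls. The simulated noise was normal and independent between genes, whereas real genes are correlated. The simulation therefore does not give the rate of false calls in the real values. Nothing says that each library comes from another animal. The tests treat libraries as independent, so their p-values would be too small if some libraries shared an animal. Promoters are from RefSeq (GRCr8), which had 43 of the 48 members; Psmd12, Psmd14, Psmb11, Psmd6 and Psma7 have no entry. Numbered replicates name libraries in accession order only. Alternatives were median-of-ratios scaling, a pseudocount of 0.25, no or a stricter filter on low values, other library sets and added or dropped covariates.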

Additional observations from a re-analysis of the deposited data

How the results depend on the processing

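The slopes of Psmb8, Psmb9 and Psmb10 on the interferon, MHC class I, MHC class II and microglia scores kept their direction and passed in all 162 fits in other settings. On the interferon score they ranged from 0.24 to 0.35, 0.25 to 0.40 and 0.12 to 0.21. Some values moved by over 1.5 times. On MHC class I, Psmb9 was 0.22 within decimal libraries and Psmb10 was 0.067 with the libraries lacking Th. On MHC class II, Psmb8 was 0.18 and Psmb10 was 0.076 with microglia and endothelium scores. The 12 relations of the subunit ratios passed in every setting run. Counts of called proteasome genes, both directions summed, moved by over 1.5 times in these cases. On the interferon score (29 called) there were 5 within decimal libraries and 11 with the oxidative phosphorylation score. On the MHC class I score (15 called) there were 7 under median-of-ratios scaling, 25 (23 rising, 2 falling) with the libraries lacking Th and 8 with microglia and endothelium scores. Of 15540 genes in all, 7585 rose and 3066 fell with the libraries lacking Th. Of 15547 genes, 2355 rose and 1013 fell with microglia and endothelium scores. On the MHC class II score (16 called) there were 10 within hexadecimal libraries and 10 with microglia and endothelium scores. Of 15530 genes in all, 2805 rose and 716 fell within hexadecimal libraries. Of 15547 genes, 1455 rose and 573 fell with microglia and endothelium scores. On the microglia score (18 called) there were 9 within hexadecimal libraries, beside 2651 rising and 811 falling of 15530 genes in all. On the dopamine score (5 called) there were 1 under median-of-ratios scaling, 33 (28 rising, 5 falling) with the libraries lacking Th and 0 within decimal libraries (limma). Of 15540 genes in all, 7442 rose and 4030 fell with the libraries lacking Th. Of 15548 genes, 1555 rose and 870 fell within decimal libraries. The identifier difference (19 called) gave 11 with library size added. With the libraries lacking Th the sums moved less but the balance of rising to falling genes changed on interferon (8 and 12), MHC class II (8 and 5), microglia (22 and 3) and the identifier difference (18 and 5). Among all 15540 genes the counts were then 7384 and 2507 on interferon, 5844 and 1859 on MHC class II and 6588 and 2444 on microglia. They were 3733 and 3922 for the identifier difference. A fit within 1 identifier form has fewer libraries; the other causes were not tested.

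Called values took the other sign as follows. With the libraries lacking Th the MHC class I slopes were Psmc1 0.042, Psmd12 0.044, Psmd6 0.0060 and Psmd9 0.034, the MHC class II slope was Psmd1 0.0049, the dopamine slopes were Psmc1 0.092, Psmc4 0.0028, Psmc5 0.055 and Psmd6 0.048, the interferon slopes were Psma2 0.011, Psmb6 0.0063, Psmc1 0.0046, Psmd10 0.027, Psmd12 0.0074 and Psmd14 0.0023, and the correlations were Psme2 with Nlrc5 0.198 and Psmb6 with Nlrc5 0.15. Within decimal libraries the MHC class I slope was Psmd11 0.0039, the interferon slopes were Psma2 0.023, Psmb2 0.0061, Psmb3 0.021, Psmd10 0.067, Psmd11 0.0061, Psmd7 0.013, Psmg2 0.034 and Psmg3 0.0014, the oxidative phosphorylation slope was Psmb8 0.024, and the correlations were Psme2 with Nlrc5 0.17. With the oxidative phosphorylation score added the interferon slopes were Psma2 0.0049, Psma7 0.0020, Psmb6 0.0098, Psmd10 0.0085 and Psmd8 0.0028. Under median-of-ratios scaling the oxidative phosphorylation slope was Psmd1 0.018. The cause was not tested. No paired analysis was possible because all libraries form 1 group. Depth limits Psmb8 and Psmb9, whose lowest libraries held 46 and 35 estimated counts. No replicate was left out in turn, since the group exceeds 5.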
